A study of Homo sapiens with 14 samples.

Results

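The genes described here were 7 long non-coding RNAs (lncRNAs): MALAT1, NEAT1, UCA1, CYTOR, PVT1, ELFN1-AS1 and LINC02413. They were chosen by symbol as nuclear or cancer-linked transcripts, and the rule itself uses no measured value. These genes and the gene lists below were, however, chosen with earlier results of these data known. They were 7 of 36601 genes measured in single cells and 7 of the 60624 genes used from the bulk tables. All 7 had counts in every library and all 7 passed the filter on low counts in every test.

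The libraries came from SW480 and SW620, epithelial lines established from the primary colorectal tumour and a lymph node metastasis of the same patient. SW620 cultures were kept for up to 15 days without passage, during which colonies formed, and SW620-TET2CD is SW620 made to overexpress the catalytic domain of TET2, a dioxygenase that oxidises 5-methylcytosine. The study describes the single-cell control line, called SW620 in the labels, as carrying an empty FLAG vector. Single-cell RNA-seq gave 8 libraries, 1 each of SW620 and SW620-TET2CD on days 6, 9, 12 and 15. Bulk RNA-seq gave 6 libraries: SW480 on day 6, SW620 on day 6, and SW620 and SW620-TET2CD on day 15 from inside and from outside the colonies. Cells outside the colonies were single cells that passed a strainer after a short digestion, and cells inside were the spheres it retained, so that both parts of a line may come from 1 culture. The sources used here do not name the promoter of the TET2CD transgene or say whether the line is 1 clone. No condition had a second library. The p-values therefore measure the spread between libraries of different days or locations, which may be technical, and not the spread between repeated cultures.

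After the limits on genes, unique molecular identifiers (UMIs) and mitochondrial share, 48282 of 67056 barcodes were kept, 3894 to 8154 per library, with a median of 6640 to 13479 UMIs per cell. The kept cells of a library held 48186195 to 74185723 UMIs. Levels are given as CPM, the UMIs of a gene per 1000000 summed UMIs of its library. A count of 0 would allow a level of up to 0.0404 to 0.0623 CPM, and this floor, like every Poisson or binomial interval below, covers counting error only. Between 11 and 31 barcodes were shared by any pair of libraries, 548 in all. Each bulk library held 16470176 to 25840563 expected counts. The sum of 12 epithelial markers was 9660 to 14146 CPM, with 10 of the 12 over 1 CPM in every library; KRT20 and CDX1 were not among them. The sum of 15 markers of immune, stromal, endothelial and other cells was 28.8 to 68.6 CPM. Of these 15, 4 were over 1 CPM in every library: LUM, LYZ, CD68 and COL1A1. LUM reached 27.2 CPM in SW620 on day 6 and CD68 36.9 CPM in SW620 on day 15. LYZ reached 31.5 CPM in SW620-TET2CD on day 15. PTPRC, CD3E, COL1A2, COL3A1, HBB and CDH5 stayed at or below 0.0623 CPM. TET2, the targeted gene, had 2.11 to 3.901 CPM in the 4 SW620 libraries, and 107, 59.5, 40.2 and 41.6 CPM in SW620-TET2CD on days 6, 9, 12 and 15. Reads of the transgene and of the endogenous TET2 gene cannot be told apart in these counts.

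In the GENCODE release 44 annotation of GRCh38, all 7 genes are of the lncRNA biotype. MALAT1 lies at chr11:65497640-65508073 and NEAT1 at chr11:65422774-65445540, both on the plus strand with 52099 bases between them. UCA1 lies at chr19:15828206-15836328, CYTOR at chr2:87454781-87636740, PVT1 at chr8:127794526-128187101 and LINC02413 at chr12:92999218-93019820, all on the plus strand. ELFN1-AS1 lies at chr7:1738630-1742291 on the minus strand. All of its 989 exonic bases fall inside the span of ELFN1 (chr7:1665745-1747946, plus strand) and 0 of them are exonic in ELFN1. CYTOR has a partial copy on the same chromosome, MIR4435-2HG, at chr2:111006015-111523376 on the minus strand. Of the 19261 different 75-base stretches in CYTOR transcripts, 45.0% also occur in MIR4435-2HG, where they are 22.9% of 37888. Values of either gene are therefore uncertain, because a read from a shared stretch can be dropped or split in counting.

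LncRNAs are transcripts with no long reading frame, and many stay in the nucleus. MALAT1 is a very abundant nuclear RNA that collects in nuclear speckles, bodies rich in splicing factors. NEAT1 is the architectural RNA of paraspeckles, which assemble around its long isoform with RNA-binding proteins such as NONO and SFPQ and are known to change under stress, including hypoxia. UCA1 (urothelial cancer associated 1), CYTOR (cytoskeleton regulator RNA) and PVT1 are lncRNAs studied for their high levels in many carcinomas; PVT1 lies next to MYC. ELFN1-AS1 is transcribed from within ELFN1 on the other strand and has been studied in colorectal cancer.

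Start-site windows of RefSeq (GRCh38.p14, 250 bases before to 50 after the start, read on the gene's strand) were present for 3 of the 7 genes: CYTOR, ELFN1-AS1 and MALAT1. Each window was searched on both strands for 5 motifs: ACGTG and GCGTG, which hold the core that hypoxia-inducible factors bind; CACGTG, the E-box, in which ACGTG is contained; TGAGTCA, whose reverse complement is TGACTCA, an AP-1 site; and ATCAAAG, a TCF/LEF site. Of all 35116 windows, 21.4% held ACGTG, 36.5% GCGTG, 7.26% CACGTG, 4.95% TGAGTCA and 2.62% ATCAAAG. The windows of CYTOR (chr2:87455177-87455476, plus strand) and MIR4435-2HG (chr2:111495112-111495411, minus strand) are shown 5′ to 3′ because they are nearly the same sequence. Capitals mark TGAGTCA.
CYTOR: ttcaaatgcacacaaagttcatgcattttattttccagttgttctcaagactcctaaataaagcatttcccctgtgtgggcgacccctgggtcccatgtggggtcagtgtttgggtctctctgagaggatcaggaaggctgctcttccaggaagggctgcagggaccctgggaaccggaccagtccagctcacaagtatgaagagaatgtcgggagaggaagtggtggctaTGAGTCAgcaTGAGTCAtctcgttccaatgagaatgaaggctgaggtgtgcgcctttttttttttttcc
MIR4435-2HG: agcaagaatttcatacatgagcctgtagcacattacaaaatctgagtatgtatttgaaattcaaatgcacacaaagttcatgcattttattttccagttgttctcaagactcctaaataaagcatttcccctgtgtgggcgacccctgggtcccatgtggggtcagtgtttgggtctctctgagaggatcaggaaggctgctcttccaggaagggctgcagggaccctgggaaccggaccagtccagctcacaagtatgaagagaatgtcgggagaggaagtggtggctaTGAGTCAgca
A run of 241 bases is identical in both, from base 1 of the CYTOR window and from base 60 of the MIR4435-2HG window. TGAGTCA occurs 2 times in the CYTOR window and 1 time in the other, whose window ends inside the shared run. The windows held 5 and 3 CG pairs, against a median of 14 over all windows.

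The windows of MALAT1 (chr11:65497488-65497787, plus strand) and ELFN1-AS1 (chr7:1742261-1742560, minus strand) are shown because these are the genes with a window whose levels moved over the days. Capitals mark GCGTG or its reverse complement CACGC.
MALAT1: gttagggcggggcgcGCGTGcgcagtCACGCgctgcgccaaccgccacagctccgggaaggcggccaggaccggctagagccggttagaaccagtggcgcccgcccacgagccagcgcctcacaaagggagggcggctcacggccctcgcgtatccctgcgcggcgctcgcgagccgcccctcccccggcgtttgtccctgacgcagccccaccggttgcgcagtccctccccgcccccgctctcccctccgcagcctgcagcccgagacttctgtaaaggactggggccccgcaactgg
ELFN1-AS1: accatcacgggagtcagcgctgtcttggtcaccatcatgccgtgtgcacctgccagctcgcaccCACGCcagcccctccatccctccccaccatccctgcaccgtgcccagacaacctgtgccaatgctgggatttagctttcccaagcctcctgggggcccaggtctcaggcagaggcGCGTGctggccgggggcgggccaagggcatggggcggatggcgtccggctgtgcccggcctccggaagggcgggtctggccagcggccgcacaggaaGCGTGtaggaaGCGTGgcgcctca
The MALAT1 window held 2 matches of GCGTG and 37 CG pairs, and 88.7% of windows held fewer. The ELFN1-AS1 window held 4 matches and 21 CG pairs. ACGTG was not found in the windows of these genes, nor was the E-box or the TCF/LEF site. A second RefSeq start of MALAT1 (chr11:65498795-65499094) had 1 match of GCGTG and 14 CG pairs. A match is a description of the letters and not a binding site.

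The first question was how these transcripts behaved as the cultures aged. MALAT1 and NEAT1 rose and ELFN1-AS1 fell from days 6 and 9 to days 12 and 15 in both lines, while CYTOR, PVT1, LINC02413 and UCA1 did not pass the test. By edgeR (quasi-likelihood, line as a block, two-sided, adjusted p under 0.05), 3 of the 7 lncRNAs were called, 2 higher and 1 lower late. The background was high: 58.0% of all 16526 tested genes were called, 29.4% higher and 28.6% lower, so that the number of lncRNAs called was not above that of other genes. The median log2 fold change of the 7 was 0.08 and that of all tested genes 0.04. With upper-quartile factors the median of all genes became 0.21, with 6250 genes higher and 3636 lower in place of 4861 and 4726, the 3 calls and their directions did not change, and LINC02413 was called as well (0.88, edgeR adjusted p = 0.0353).

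**Figure D1:**
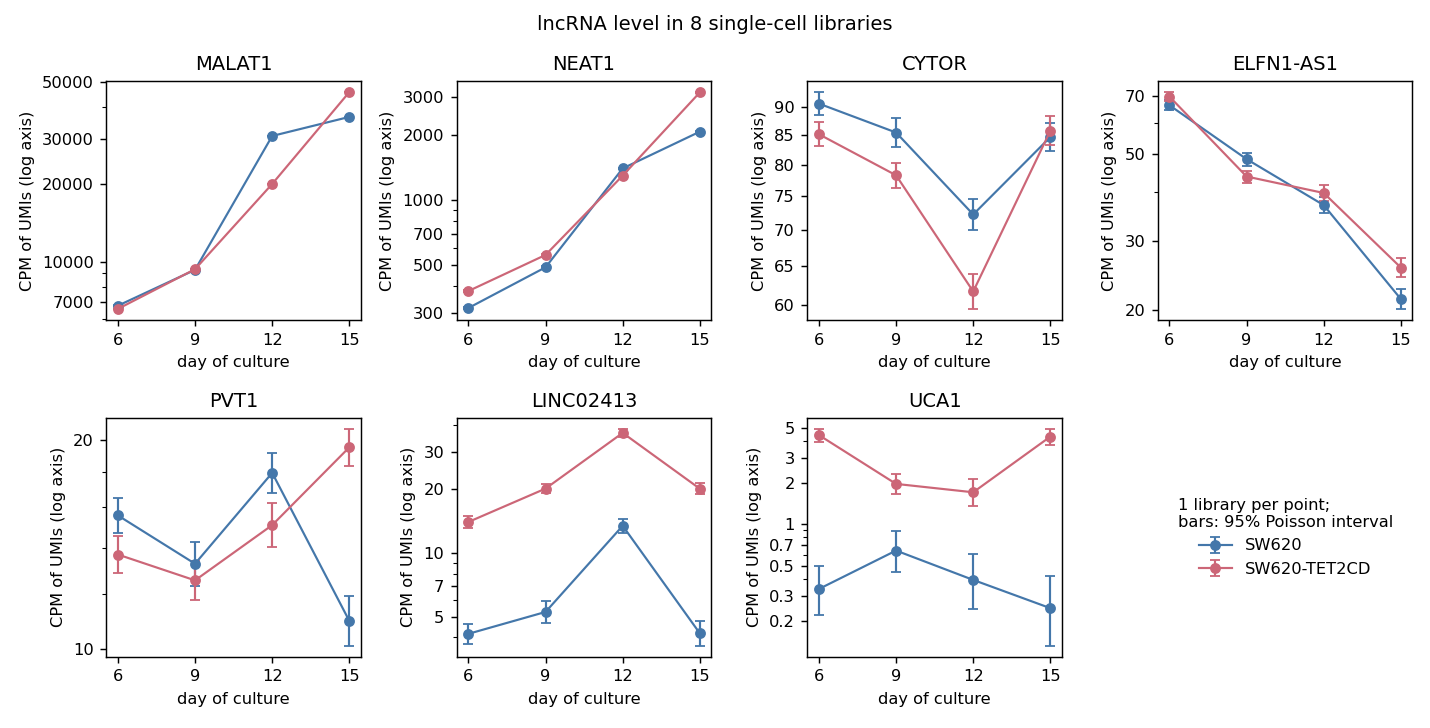
CPM of UMIs (log axis) of each of the 7 lncRNAs against the day of culture in SW620 (blue) and SW620-TET2CD (red), 1 library per point, with bars for the 95% Poisson interval. MALAT1 and NEAT1 stand higher on days 12 and 15 than on days 6 and 9 in both lines, ELFN1-AS1 stands lower, and the lines are apart on every day for UCA1 and LINC02413.

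MALAT1 had 6748, 9299, 30786 and 36506 CPM in SW620 on days 6, 9, 12 and 15. In SW620-TET2CD it had 6556, 9352, 20040 and 45593 CPM on the same days. Every late library was above every early one, and the lowest late library was SW620-TET2CD of day 12. The late mean was 4.19 times the early mean in SW620 and 4.13 times in SW620-TET2CD, and day 15 stood at 5.41 and 6.95 times day 6, or at 3.11 and 6.62 times in mean UMIs per cell. The log2 fold change was 1.95 ± 0.24 (SE, 8 libraries), with an edgeR adjusted p of 0.000106. Ranked by UMIs, which are read from the 3′ end and are not scaled by length, MALAT1 stood 8th and 7th among all genes on day 6 and 5th on day 9, and it stood 1st in all 4 late libraries.

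NEAT1 was lower than MALAT1 in UMIs but moved with it. It had 318, 489, 1399 and 2068 CPM in SW620 on days 6, 9, 12 and 15, and 380, 558, 1296 and 3139 CPM in SW620-TET2CD. Here too no late library overlapped an early one, and day 15 of SW620-TET2CD was the highest. The late mean was 4.30 times the early mean in SW620 and 4.73 times in SW620-TET2CD. The log2 fold change was 2.07 ± 0.27 (SE, 8 libraries; edgeR adjusted p = 0.000152). Its rank among all genes went from 436 and 358 on day 6 to 93 and 58 on day 15. Per cell, mean UMIs of MALAT1 were 4.31 and 3.8996 times higher late in SW620 and SW620-TET2CD, and those of NEAT1 4.36 and 4.44 times; day 15 of NEAT1 was at 3.74 and 7.86 times day 6 on this scale and at 6.51 and 8.26 times in CPM.

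Together with all other annotated lncRNAs, the 2 nuclear RNAs took 2.13% to 2.58% of the UMIs in the early libraries and 4.29% to 7.49% in the late ones. Without MALAT1 and NEAT1, the share was 1.44% to 1.59% early and 2.15% to 2.61% late. Of 3374 lncRNA genes tested, 1214 rose and 389 fell, 47.5% in all, and their median log2 fold change was 0.36.

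The increase was seen across most cells of a library. The median cell had 0.566% to 0.833% of its UMIs from MALAT1 in the early libraries and 1.80% to 4.32% in the late ones. The spread was wide on day 15, with the 5th and 95th percentiles at 0.0938% and 9.77% in SW620 and at 1.14% and 11.4% in SW620-TET2CD. For shares of thinned cells, cells with at least 2000 UMIs were thinned to 2000, which left out 18 to 89 cells per library. Shares without thinning cover all kept cells. MALAT1 was seen in 97.5% to 99.4% of thinned cells in every library. NEAT1 was seen in 41.4%, 53.2%, 77.9% and 81.9% of thinned SW620 cells in order of day, and in 44.7%, 57.0%, 75.3% and 91.0% of SW620-TET2CD cells; without thinning the shares were 87.3%, 83.4%, 97.3% and 94.9%, and 83.3%, 92.5%, 96.9% and 97.9%. The thinned shares were below those that an even spread of the same UMIs over cells would give, 48.1% to 99.9%, so that NEAT1 was unevenly distributed between cells. The libraries held cells of 1 line each, so that the share free RNA would give could not be read from another cell type.

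The levels of both nuclear RNAs also differed with the mitochondrial share of a barcode, a sign of RNA quality, and not in 1 direction throughout. Barcodes with over 20% mitochondrial UMIs, which the limits removed, had 47452 to 130075 CPM of MALAT1, more than any kept library. Among barcodes with 2% to 5% mitochondrial UMIs, MALAT1 was at 5938 to 7711 CPM in the early libraries and at 23410 to 66303 CPM in the late ones. Among those with 5% to 10% it was at 7731 to 9260 CPM early and 14897 to 38276 CPM late. From the first of these bands to the second MALAT1 was higher in all 4 early libraries and lower in 3 of the 4 late ones, the exception being SW620 of day 15 (35270 and 35859 CPM). Every late library stood above every early one inside both bands. Between 10% and 20% this did not hold, with SW620-TET2CD at 16651 CPM on day 12 and 16767 CPM on day 6. The same held for NEAT1 in the 2% to 5% band, with 277 to 480 CPM early and 1806 to 6108 CPM late. Among barcodes with 10000 to 20000 UMIs, MALAT1 was at 6408 to 9101 CPM early and 18782 to 35103 CPM late. With the mitochondrial limit at 5% in place of 10%, the log2 fold changes were 2.65 for MALAT1, 3.07 for NEAT1 and -1.66 for ELFN1-AS1. The median mitochondrial share of kept cells was 3.93% to 7.77% and was highest on day 9.

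**Figure D2:**
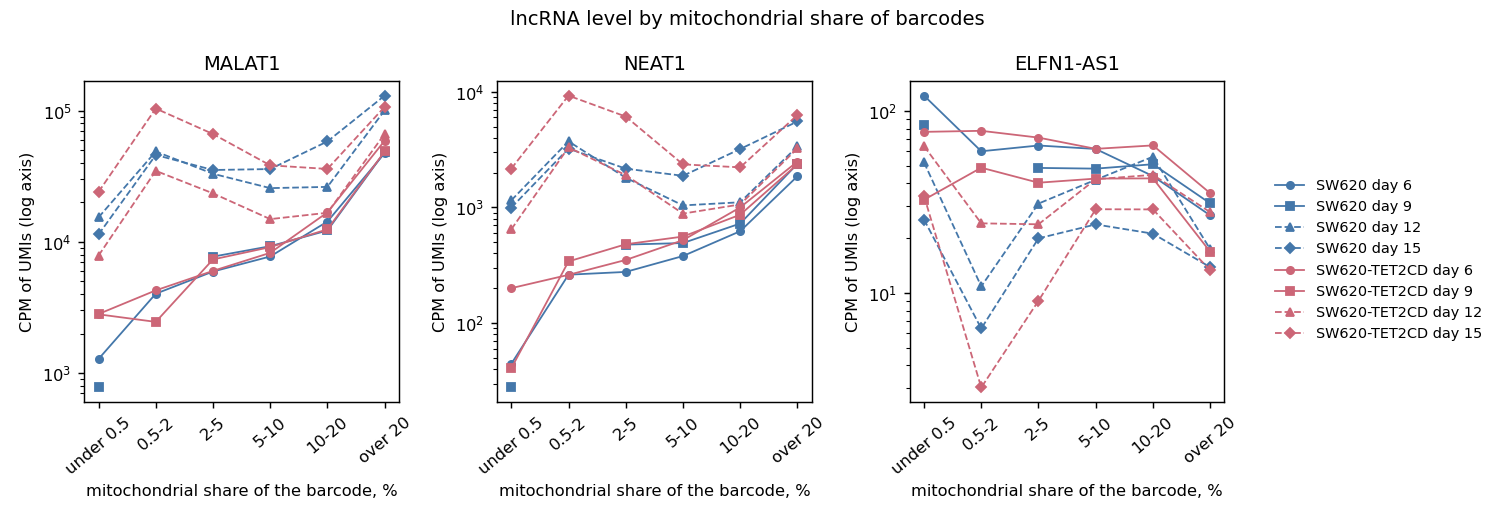
CPM of UMIs (log axis) of MALAT1, NEAT1 and ELFN1-AS1 in barcodes grouped by their mitochondrial share (x axis, percent), with 1 line per library, blue for SW620, red for SW620-TET2CD, solid for days 6 and 9 and dashed for days 12 and 15. Barcodes above the upper limits on genes and UMIs are included. Within the bands from 2% to 10% the dashed lines of MALAT1 and NEAT1 lie above all solid lines, those of ELFN1-AS1 lie below, and MALAT1 is at 47452 CPM or more in every library over 20%.

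The transcripts of proteins that share the bodies of these RNAs mostly moved the other way. The counts are per gene, so the rise of NEAT1 cannot be assigned to its long isoform. Of 25 genes of paraspeckle proteins, all tested, 2 rose and 19 fell late, with a median log2 fold change of -0.66 against 0.04 for all genes. RBM3, a cold-inducible RNA-binding protein, fell by 1.41 on the log2 scale, HNRNPM, a splicing regulator, by 1.22 and RBM14, which is needed for paraspeckle assembly, by 1.11, whereas ZC3H6 rose by 1.84. Of 28 genes of nuclear speckle and splicing proteins, 3 rose and 18 fell, with a median of -0.46. ALYREF, an mRNA export adaptor, fell by 2.11, SRSF3 by 1.28 and SRSF2 by 1.24, both of them SR splicing factors, and CLK1, a kinase of SR proteins, rose by 1.29.

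The genes next to the 7 lncRNAs did not follow as a group. Of 16 neighbours and paralogs, 10 were tested, of which 1 rose and 1 fell, with a median of 0.02. The gene that rose was LTBP3, by 1.21 on the log2 scale. Among 70 other lncRNAs linked to cancer, 49 were tested, of which 24 rose and 5 fell, with a median of 0.41. MIR210HG, the host transcript of the hypoxia-induced miR-210, rose by 3.60, PCAT6 by 3.39 and HIF1A-AS3 by 3.28, and RMRP, the RNA of the ribonuclease MRP, fell by 2.77. In the same libraries 26 of 29 tested hypoxia-response genes rose and 0 fell, with a median of 1.68, led by ANGPTL4 (5.01), NDRG1 (4.46), NDUFA4L2 (4.33) and DDIT4 (4.23). Of 15 p53 and stress-response genes 10 rose and 3 fell, with a median of 1.06, led by BBC3 (3.58), ASNS (2.19), CHAC1 (1.92) and GDF15 (1.91). Among 11 tested epithelial markers 4 rose (CDH1, CLDN4, CLDN7 and CLDN3) and 1 fell. Of 8 tested markers of other cell types 5 rose and 1 fell, among them CD68 (3.103), DCN (2.45), LUM (-1.39) and LYZ (1.07), at levels that summed to at most 68.6 CPM; their part in the lncRNA levels was not tested.

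ELFN1-AS1 fell late. It had 66.4, 48.4, 37.0 and 21.4 CPM in SW620 on days 6, 9, 12 and 15, and 69.8, 43.8, 39.7 and 25.7 CPM in SW620-TET2CD. Within each line every later day was below the day before it, and the late and early libraries did not overlap. In mean UMIs per cell SW620 of day 9 (0.351) lay below SW620 of day 12 (0.478), so that on this scale the SW620 days overlapped. The late mean was 0.509 times the early mean in SW620 and 0.576 times in SW620-TET2CD. The log2 fold change was -0.997 ± 0.22 (SE, 8 libraries; edgeR adjusted p = 0.00312). In thinned cells the share with a UMI of ELFN1-AS1 went from 12.2% on day 6 to 4.001% on day 15 in SW620 and from 13.2% to 4.26% in SW620-TET2CD, against 51.6% to 13.1% and 41.6% to 16.6% without thinning. Among barcodes with 2% to 5% mitochondrial UMIs it was at 40.3 to 71.3 CPM early and 9.05 to 31.0 CPM late, and among those with 5% to 10% at 42.5 to 61.9 and 23.8 to 42.1 CPM. Late and early libraries overlapped among barcodes with 10% to 20% (56.0 CPM in SW620 of day 12 against 42.6 CPM in SW620-TET2CD of day 9), among those with 1000 to 5000 UMIs (59.2 CPM in SW620 of day 12 against 40.6 CPM in SW620 of day 9) and among those over 20000 UMIs (42.6 CPM in SW620 of day 12 against 40.4 CPM in SW620-TET2CD of day 9). They also overlapped under 0.5% and over 20% mitochondrial UMIs. There SW620-TET2CD had 64.0 and 27.8 CPM on day 12 against 32.5 and 16.8 CPM on day 9. ELFN1, the coding gene on the other strand, was at 0.257 to 0.515 CPM with no called change (log2 fold change 0.01 ± 0.29, edgeR adjusted p = 0.985).

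CYTOR was nearly level. It had 90.6, 85.4, 72.2 and 84.7 CPM in SW620 on days 6, 9, 12 and 15, and 85.1, 78.3, 61.7 and 85.8 CPM in SW620-TET2CD. Day 12 was the lowest day in both lines. Day 15 lay below both early days in SW620 and above both in SW620-TET2CD. The log2 fold change of -0.26 ± 0.13 (SE, 8 libraries) had an edgeR adjusted p of 0.104. It became a call without SW620 of day 15 (-0.36, edgeR adjusted p = 0.0364), and with the mitochondrial limit at 5% the estimate was 0.25. Its copy MIR4435-2HG had 37.6, 38.6, 33.2 and 47.6 CPM in SW620 and 38.6, 37.6, 24.6 and 49.2 CPM in SW620-TET2CD, also lowest on day 12 (log2 fold change -0.09 ± 0.20, edgeR adjusted p = 0.729).

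PVT1 had 15.6, 13.3, 17.9 and 10.97 CPM in SW620 and 13.7, 12.6, 15.1 and 19.5 CPM in SW620-TET2CD on days 6, 9, 12 and 15. The highest and the lowest of the 8 values were both on day 15. Its log2 fold change late was 0.08 ± 0.15 (SE, 8 libraries; edgeR adjusted p = 0.647), and it was -0.33 with the mitochondrial limit at 5%. MYC, its neighbour, had 91.6 to 161 CPM and a log2 fold change of 0.12 ± 0.17 (edgeR adjusted p = 0.560).

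LINC02413 peaked on day 12 in both lines. It had 4.16, 5.27, 13.4 and 4.18 CPM in SW620 on days 6, 9, 12 and 15, and 14.0, 20.1, 36.8 and 20.1 CPM in SW620-TET2CD. The late and early days overlapped in both lines, and the log2 fold change of 0.70 ± 0.31 (SE, 8 libraries) had an edgeR adjusted p of 0.0708. It was called under 5 of the 20 alternatives: without SW620 of day 15 (0.91, edgeR adjusted p = 0.0145), without SW620-TET2CD of day 15 (edgeR adjusted p = 0.0365), with DESeq2 (adjusted p = 0.0349), with upper-quartile factors (edgeR adjusted p = 0.0353) and with no filter on low counts (edgeR adjusted p = 9.41e-05). Without SW620 of day 12 it was 0.33 (edgeR adjusted p = 0.310) and without SW620-TET2CD of day 12 it was 0.49 (edgeR adjusted p = 0.198). UCA1 had a log2 fold change late of -0.42 ± 0.37 (SE, 8 libraries; edgeR adjusted p = 0.361), with its values given below.

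**Figure D3:**
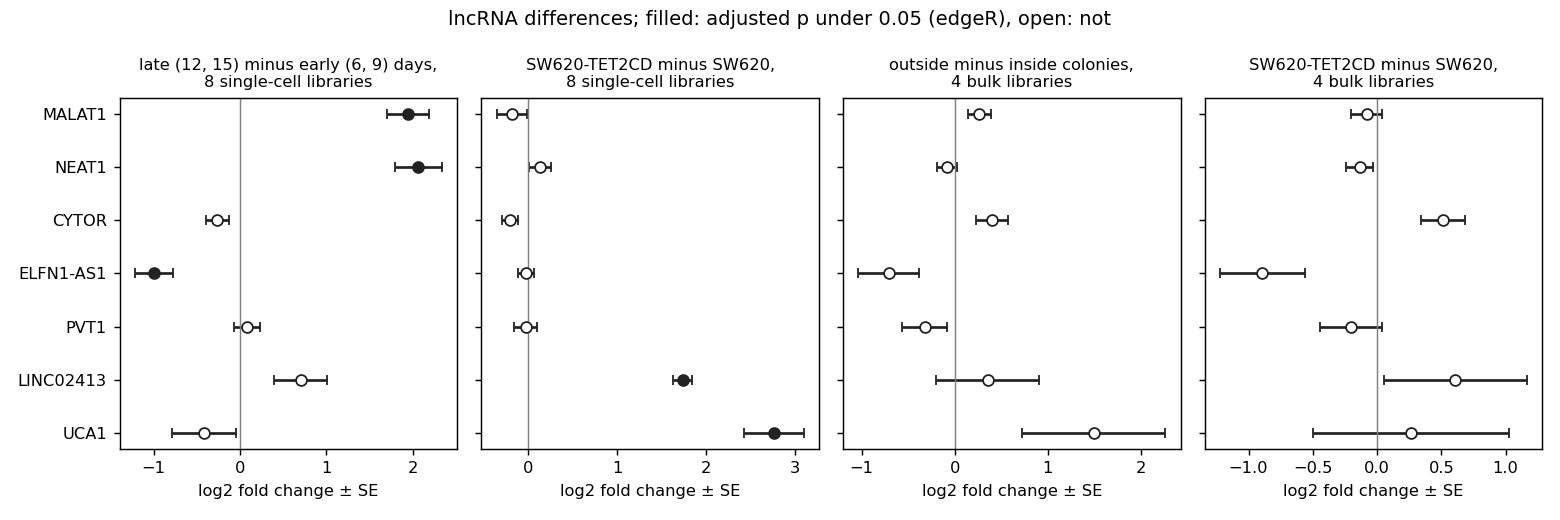
Log2 fold change ± SE of each of the 7 lncRNAs in 4 edgeR comparisons (1 panel each, x axes of different range), with filled points for an adjusted p under 0.05. MALAT1, NEAT1 and ELFN1-AS1 are filled for late against early days, LINC02413 and UCA1 for SW620-TET2CD against SW620 in single cells, and no point is filled in the 2 bulk comparisons.

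The second question was whether the catalytic domain of TET2 changed these transcripts. In single cells UCA1 and LINC02413 were higher in SW620-TET2CD than in SW620 on each of the 4 days, and the other 5 lncRNAs did not pass the test. With day as a block, edgeR called 2 of the 7 lncRNAs, both higher, against a background of 4.21% of all 16526 genes (2.37% higher and 1.85% lower). Without the day block the number of calls fell from 696 genes to 46 and the 2 calls were lost.

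UCA1 was low in SW620, with 0.339, 0.643, 0.394 and 0.246 CPM on days 6, 9, 12 and 15, from 25, 35, 20 and 13 UMIs. In SW620-TET2CD it had 4.42, 1.96, 1.70 and 4.31 CPM, from 328, 142, 82 and 220 UMIs. The groups did not overlap, and the ratio of the lines was 13.1, 3.04, 4.32 and 17.5 on the 4 days, with separate 95% Poisson intervals on each. The log2 fold change was 2.77 ± 0.33 (SE, 8 libraries; edgeR adjusted p = 0.000615). It was 2.83 without the day block (edgeR adjusted p = 0.0568). With every cell thinned to 1000 UMIs it was 4.34, from few UMIs in SW620, which had 13 to 35 per library before thinning. In those sums the filter on low counts could be passed through SW620-TET2CD alone, so 4.34 adds no support. In thinned cells 0.0293% to 0.134% of SW620 cells and 0.284% to 0.665% of SW620-TET2CD cells had a UMI of UCA1, against 0.174% to 0.433% and 1.34% to 2.39% without thinning. The highest number of UMIs in 1 cell was 2 or 3 in SW620 and 14, 8, 7 and 26 in SW620-TET2CD.

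LINC02413 was 3.37, 3.82, 2.74 and 4.81 times higher in SW620-TET2CD than in SW620 on days 6, 9, 12 and 15, from the levels given above, and the 95% Poisson intervals were separate on each day. The lowest value in SW620-TET2CD, 14.0 CPM on day 6, was close to the highest in SW620, 13.4 CPM on day 12. The log2 fold change was 1.74 ± 0.11 (SE, 8 libraries; edgeR adjusted p = 3.05e-06). Without the day block it was 1.67 with an edgeR adjusted p of 0.441. The share of thinned cells with a UMI was 0.791% to 2.53% in SW620 and 3.15% to 7.66% in SW620-TET2CD, against 2.73% to 12.3% and 10.8% to 30.4% without thinning.

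The other 5 lncRNAs had log2 differences between the lines of -0.21 ± 0.09 for CYTOR (SE; edgeR adjusted p = 0.314), -0.18 ± 0.17 for MALAT1 (0.706), 0.13 ± 0.13 for NEAT1 (0.707), -0.03 ± 0.09 for ELFN1-AS1 (0.928) and -0.03 ± 0.13 for PVT1 (0.956). MALAT1 was lower in SW620-TET2CD on day 12, at 0.651 times SW620, and higher on day 15, at 1.25 times. NEAT1 in SW620-TET2CD was at 0.926 times SW620 on day 12 and 1.52 times on day 15, and PVT1 at 0.841 and 1.78 times. None of the 7 lncRNAs was called in the test of whether the change over time differed between the lines. Its model held line, late days and their product with no block for day, so the lines were not paired by day in it. That test called 0 of 16526 genes with edgeR (0% of all, 130 at an unadjusted p under 0.05) and 0 with DESeq2. The SE of the interaction was 0.28 to 0.80 on the log2 scale over the 7, and 0 of them had an unadjusted p under 0.05.

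Of the 49 other cancer-linked lncRNAs tested, 8 were higher and 0 lower in SW620-TET2CD. AFAP1-AS1 was higher by 5.39 on the log2 scale, MEG3 by 4.62, CASC15 by 3.73 and MIAT by 1.60. Over all 3374 lncRNA genes 79 were higher and 31 lower, 3.26% in all. None of the transcripts of paraspeckle, speckle and splicing proteins or of the neighbouring genes was called between the lines. Of the hypoxia-response genes BNIP3 was higher (0.96) and SLC2A3 (-0.60), ANKRD37 (-0.45) and VEGFA (-0.44) were lower, and of the p53 and stress-response genes GDF15 (-0.56) and BBC3 (-0.56) were lower. CLDN7 was the 1 epithelial marker called (1.44), and of the markers of other cell types PECAM1 (1.88) and LYZ (0.83) were higher and CD68 (-1.08) was lower.

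The overexpressing line was uneven in TET2 itself, and the 7 lncRNAs were compared between its cells by their TET2 UMIs. This split was added after the data had been seen; it is a description with no test, since cells of 1 library are not replicates. On days 6, 9, 12 and 15 a TET2 UMI was found in 2274, 1552, 763 and 1014 cells of SW620-TET2CD, and in 124 to 184 cells of each SW620 library. Cells without one were 72.1%, 75.9%, 80.4% and 82.8% of SW620-TET2CD on these days, and 95.3% to 98.3% of the SW620 libraries. UCA1 was at 12.4, 5.23, 5.06 and 14.7 CPM in SW620-TET2CD cells with a TET2 UMI on days 6, 9, 12 and 15. In cells of the same libraries without one it was at 1.02, 0.849, 0.836 and 1.76 CPM. The ratio was 6.05 to 12.1 and the same direction was seen in 4 of 4 libraries. On day 6, 6.86% of cells with a TET2 UMI had a UMI of UCA1 (95% Clopper-Pearson interval 5.86 to 7.98) and 0.663% of those without (0.472 to 0.906). On day 15 the shares were 4.73% (3.51 to 6.23) and 0.698% (0.484 to 0.973).

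LINC02413 was at 21.2, 30.8, 49.7 and 34.5 CPM in SW620-TET2CD cells with a TET2 UMI and at 10.9, 16.5, 33.5 and 16.5 CPM in cells without, 1.48 to 2.09 times higher in 4 of 4 libraries. ELFN1-AS1 went the other way, with 53.9, 32.2, 22.2 and 16.7 CPM against 76.7, 47.7, 44.3 and 27.9 CPM, a ratio of 0.503 to 0.702. In 3 bands of 0, 1 to 4 and 5 or more TET2 UMIs, ELFN1-AS1 stepped down on each day, from 76.7 to 57.6 to 43.8 CPM on day 6 and from 44.3 to 23.6 to 15.7 CPM on day 12. UCA1 stepped up on day 6, from 1.02 to 8.29 to 23.1 CPM, on day 9 and on day 15, and was at 5.10 and 4.83 CPM in the upper bands of day 12. The band of 5 or more held few UMIs, with 26 and 13 of ELFN1-AS1 on days 12 and 15. For UCA1 it held 27, 8 and 18 UMIs on days 9, 12 and 15, and the last steps on these days were not tested. MALAT1, CYTOR and PVT1 were lower in cells with a TET2 UMI in 4 of 4 libraries by ratios of 0.836 to 0.954, 0.859 to 0.994 and 0.784 to 0.940, and NEAT1 was higher in 3 of 4, with ratios of 0.927 to 1.18. In SW620 MALAT1 was instead higher in cells with a TET2 UMI in 4 of 4 libraries, by ratios of 1.04 to 1.29, and NEAT1 in 4 of 4, by 1.07 to 1.34, while CYTOR was higher in 3 and PVT1 in 2 of the 4.

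Cells with more TET2 UMIs were also deeper, with medians of 8405, 8936 and 10562 UMIs in the 3 bands of day 6, and the part of depth in these ratios was not tested beyond the scaling to CPM. In SW620, where TET2 UMIs were rare, ELFN1-AS1 and LINC02413 were each higher in 2 and lower in 2 of the 4 libraries in cells with a TET2 UMI. UCA1 had no UMI in these cells in 3 of the 4 SW620 libraries, and a count of 0 allows up to 1.21 to 2.36 CPM there. The other cells of those libraries were at 0.252 to 0.414 CPM, so that neither a lower level nor a rise up to these floors was detectable. A rise beyond the floors was not seen. On day 9 the SW620 cells with a TET2 UMI held 3 UCA1 UMIs, all in 1 cell, or 2.83 CPM (95% Poisson interval 0.583 to 8.26) against 0.600 CPM (0.410 to 0.847) in the other cells. SW620-TET2CD cells without a TET2 UMI were still above SW620 as a whole for UCA1, at 0.836 to 1.76 against 0.246 to 0.643 CPM, with 95% Poisson intervals that were separate on days 6 and 15 and overlapped on days 9 and 12. For LINC02413 the ranges were 10.9 to 33.5 and 4.16 to 13.4 CPM, with the higher value in SW620-TET2CD on each day. A cell without a TET2 UMI may still express the transgene below detection.

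**Figure D4:**
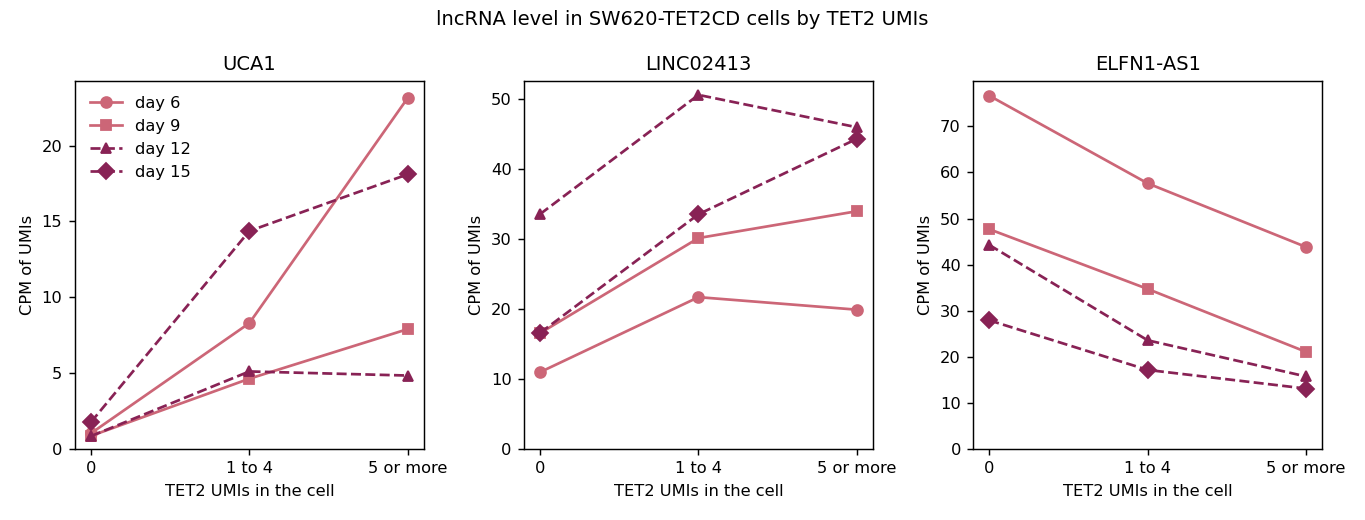
CPM of UMIs of UCA1, LINC02413 and ELFN1-AS1 in SW620-TET2CD cells with 0, 1 to 4 and 5 or more TET2 UMIs (x axis), 1 line per day of culture, all axes from 0. UCA1 and LINC02413 are lowest in cells with 0 TET2 UMIs on all 4 days, and ELFN1-AS1 steps down from 0 to 5 or more on all 4.

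The bulk libraries of day 15 were used to compare cells outside and inside the colonies and, again, the 2 lines. In bulk, fewer cells of a kind and less RNA per cell cannot be told apart, and the kit did not keep the strand, so that reads of MALAT1 or ELFN1-AS1 and of transcripts on the opposite strand cannot be told apart either. Values are TPM, the transcripts of a gene per 1000000 after scaling by transcript length, and each test used 4 libraries with 1 residual degree of freedom.

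MALAT1 was at 392 TPM inside and 484 TPM outside the colonies of SW620, and at 371 and 563 TPM in SW620-TET2CD. It was higher outside in both lines, with a log2 fold change of 0.26 ± 0.12 (SE, 4 libraries; edgeR adjusted p = 0.772). For NEAT1 the inside and outside levels were 363 and 315 TPM in SW620, and 317 and 309 TPM in SW620-TET2CD (-0.09 ± 0.11, SE; edgeR adjusted p = 0.886). CYTOR was at 17.4 and 22.1 TPM in SW620 and at 25.3 and 35.4 TPM in SW620-TET2CD, higher outside in both (0.40 ± 0.17, SE; edgeR adjusted p = 0.772). ELFN1-AS1 was at 46.5 and 40.9 TPM in SW620 and at 36.2 and 15.5 TPM in SW620-TET2CD, lower outside in both (-0.71 ± 0.33, SE; edgeR adjusted p = 0.772). PVT1 was at 30.8 and 34.0 TPM in SW620 and at 26.8 and 19.8 TPM in SW620-TET2CD (-0.32 ± 0.24, SE; edgeR adjusted p = 0.816). LINC02413 was at 9.95 and 5.73 TPM in SW620 and at 6.99 and 19.9 TPM in SW620-TET2CD (0.35 ± 0.56, SE; edgeR adjusted p = 0.911). UCA1 was at 0.50 and 0.60 TPM in SW620, from 10 and 11 expected counts, and at 0.14 and 1.04 TPM in SW620-TET2CD, from 2.61 and 30 (1.495 ± 0.77, SE; edgeR adjusted p = 0.778). It passed the filter on low counts only through the outside libraries, where it was higher, so the estimate is no evidence of a difference. None of the 7 was called, nor was any of the 17722 genes tested (0% of all; smallest edgeR adjusted p = 0.278). At an unadjusted p under 0.05 the test had 1068 genes and 0 of the 7 lncRNAs, and DESeq2 called 21 genes.

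Between the lines in the same 4 libraries, CYTOR was 0.51 ± 0.17 higher in SW620-TET2CD on the log2 scale (SE; edgeR adjusted p = 0.211) and ELFN1-AS1 was at -0.89 ± 0.33 (adjusted p = 0.235). LINC02413 was at 0.61 ± 0.56 (edgeR adjusted p = 0.594), UCA1 at 0.26 ± 0.76 (0.878), and both were lower in SW620-TET2CD inside the colonies and higher outside. In the single cells of day 15 the ratios of the lines were 4.81 for LINC02413, 17.5 for UCA1 and 1.01 for CYTOR, and that of ELFN1-AS1 was 1.202, opposite in direction to the bulk value. Leaving out 1 library, the difference was -0.48 to 1.67 for LINC02413 and -1.42 to 1.22 for UCA1. Among the rest, PVT1 was at -0.20 ± 0.24 (0.687), NEAT1 at -0.14 ± 0.11 (0.536) and MALAT1 at -0.08 ± 0.12 (0.754). None of the 7 was called, against 0.412% of the 17722 genes (0.288% higher and 0.124% lower). CYTOR and ELFN1-AS1 had an unadjusted p under 0.05. With no filter on low counts ELFN1-AS1 was called (-0.91, edgeR adjusted p = 0.0115). The split of all calls moved with the scaling, from 51 higher and 22 lower to 103 and 75 with upper-quartile factors. Of the 49 other cancer-linked lncRNAs tested, AFAP1-AS1 (5.74) and LINC00261 (1.66) were higher. MIR4435-2HG, the copy of CYTOR, was at 29.7 and 40.5 TPM in SW620 and at 44.4 and 54.5 TPM in SW620-TET2CD, with a log2 difference between the lines of 0.64 ± 0.11 (SE; edgeR adjusted p = 0.0866). TET2 itself had 1.15 TPM inside and 1.29 TPM outside the SW620 colonies, and 38.1 and 124 TPM in those of SW620-TET2CD.

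**Figure D5:**
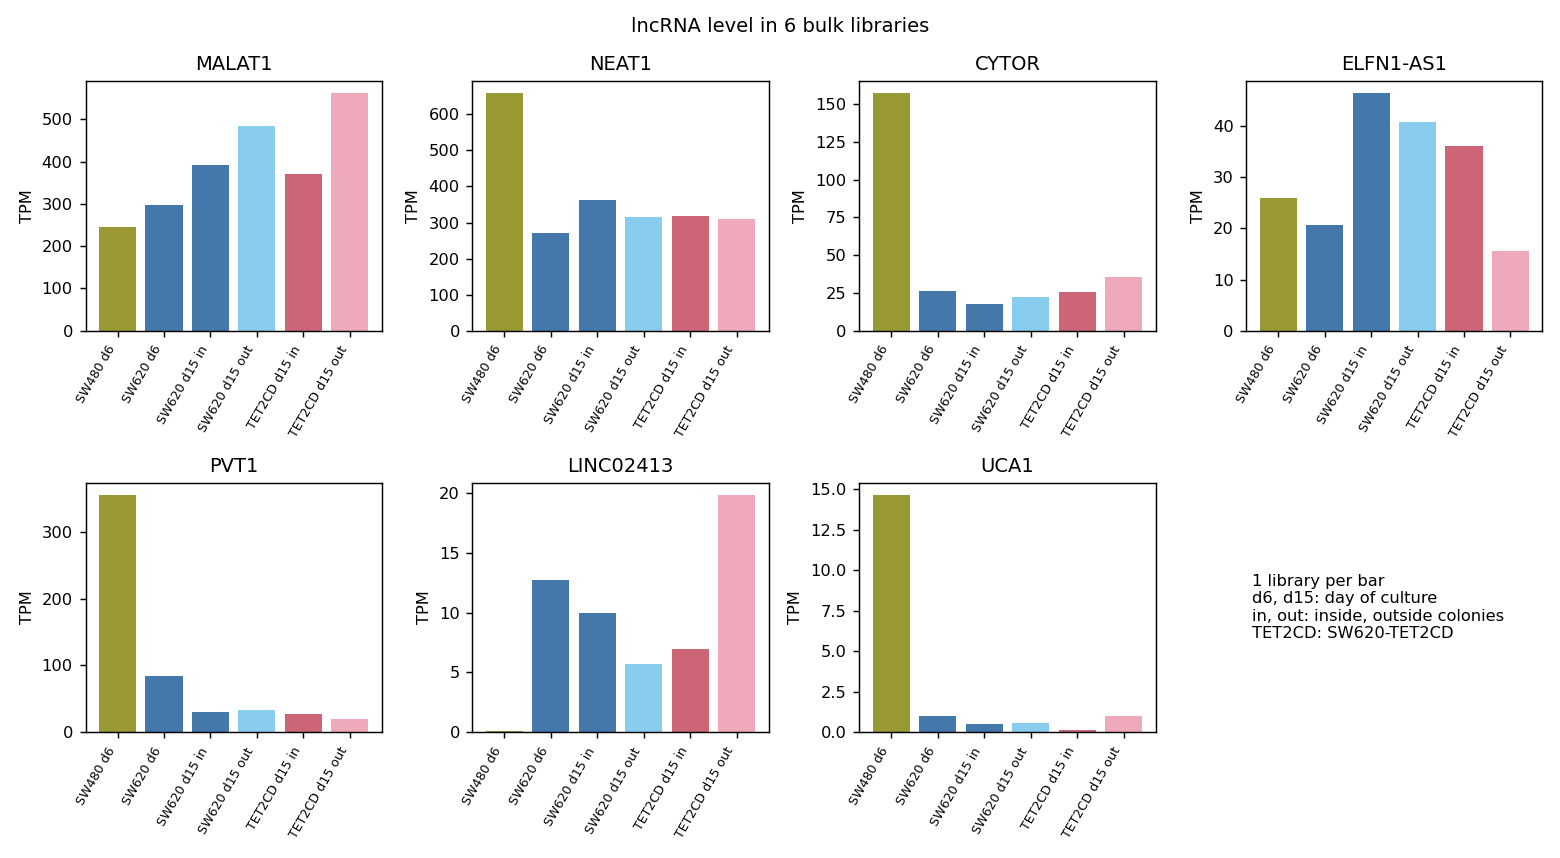
TPM of each of the 7 lncRNAs in the 6 bulk libraries, 1 bar per library with axes from 0 (SW480 and SW620 on day 6, then inside and outside the colonies of SW620 and SW620-TET2CD on day 15). SW480 is the highest bar for NEAT1, UCA1, CYTOR and PVT1 and close to 0 for LINC02413.

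SW480 and SW620 were compared on day 6 by their values alone, since each had 1 library. UCA1 was at 14.7 TPM in SW480 and 1.02 TPM in SW620, from 267 and 17 expected counts, a ratio of 14.4. CYTOR was at 158 and 26.6 TPM, a ratio of 5.93, and its copy MIR4435-2HG was at 297 and 37.4 TPM. With expected counts taken as CPM of the library, CYTOR was at 66.6 and 14.9 and MIR4435-2HG at 144 and 32.7. The RSEM lengths were 734 and 884 bases for CYTOR, and 811 and 1267 bases for MIR4435-2HG. PVT1 was at 355 and 84.4 TPM, a ratio of 4.21, with RSEM lengths of 439 and 280 bases, and at 72.6 and 9.63 when its expected counts were taken as CPM of the library. NEAT1 was at 659 and 271 TPM, a ratio of 2.43. ELFN1-AS1 was at 25.9 and 20.7 TPM and MALAT1 at 245 and 296 TPM. LINC02413 had 1 expected count in SW480 and 120 in SW620, or 0.09 and 12.7 TPM.

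Bulk SW620 of day 6 and day 15 could be set beside the single cells, as values only. MALAT1 on day 15 was 1.32 times (inside) and 1.63 times (outside) its day 6 TPM, and NEAT1 1.34 and 1.16 times, in the direction of the single cells but smaller than the 5.41 and 6.51 times in CPM, or 3.11 and 3.74 times in mean UMIs per cell, of SW620 single cells between the same days. ELFN1-AS1 was 2.25 and 1.98 times its day 6 TPM, so that the 2 assays differed in direction. The single cells gave 0.322 times in CPM and 0.185 times in mean UMIs per cell. CYTOR was at 0.656 and 0.833 times, LINC02413 at 0.782 and 0.450 times and UCA1 at 0.490 and 0.588 times. PVT1 depended on the scale: its TPM on day 15 was 0.365 and 0.403 times that of day 6, while its expected counts as CPM of the library were 9.63 on day 6 and 12.2 in both parts on day 15. The mean transcript length that RSEM assigned to PVT1 was 280 bases in SW620 on day 6 and 617 to 666 bases on day 15. For NEAT1 that length was 2743 to 2909 bases in the 6 libraries, against 22767 exonic bases in the annotation. The 2 assays also differ in which end of a transcript they read and in which cells they sampled, and their part in these differences was not tested.

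The genes whose levels went most closely with each lncRNA over the 8 single-cell libraries were found by Pearson's r of log2(CPM + 1) among the genes with a mean of at least 8 CPM; these are descriptions over libraries that share lines and days. For MALAT1 they were NBR1 (r = 0.998), an autophagy receptor, MXD1 (0.998), a MAX partner, and NPAS2 (0.997), a circadian transcription factor. For NEAT1 they included MICALL2 (0.999) and MAN1A2 (0.995), a Golgi mannosidase. For ELFN1-AS1 they were DNPEP (0.992), an aspartyl aminopeptidase, RSL1D1 (0.989), a nucleolar protein, and NEK6 (0.988), a mitotic kinase. LINC02413 went with SRARP (0.990), BCL11A (0.967), a zinc-finger transcription factor, and the lncRNA LINC00261 (0.967). The values were lower for UCA1, with UBE2E2 (0.963), PIP4K2A (0.959) and MRPS31 (0.938), for CYTOR, with YARS (0.962), WDR55 (0.944) and SPRYD3 (0.916), and for PVT1, with AC060780.1 (0.925), PRPF39 (0.923) and MBTPS2 (0.921).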

How the data were processed

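RNA was measured in 8 single-cell and 6 bulk libraries of colorectal cancer lines. The deposited single-cell matrices hold UMI counts per gene and barcode, made by the authors with Cell Ranger 4.0 (GRCh38, per the labels). The deposited bulk tables hold RSEM expected counts and TPM per gene; the submitters' notes name Bowtie, RSEM and mm10, although the gene identifiers are human. A barcode counted as a cell with 200 to 4500 genes, a total of 1000 to 20000 UMIs and a mitochondrial share of no more than 10%, and UMIs were summed per library; doublets were not called. The study states fewer cells than these limits left. Of 60669 bulk genes, 45 pseudoautosomal Y copies were left out, and 36556 genes were in both assays.

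Tests used edgeR 4.0.16 (filterByExpr, TMM, quasi-likelihood, two-sided, Benjamini-Hochberg over all genes, threshold 0.05) in R 4.3.3; expected counts were rounded first. DESeq2 1.42.0 was an alternative, beside other scalings, filters and cell limits, no block and leaving out each library. SE is the log2 fold change divided by the root of F. Levels used CPM with exact 95% Poisson intervals, shares 95% Clopper-Pearson intervals. Scripts were tested on simulated counts. Named genes are the 7 lncRNAs, up to 4 called genes per list with the largest change, 3 most alike and locus neighbours; a few genes that the rule names are not reported here. The lncRNAs and all lists were chosen with earlier results of these data known. Depth per library and its floor open the report.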

Additional observations from a re-analysis of the deposited data

Results flagged for a closer look

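Between cells outside and inside the colonies on day 15, the differences of PVT1 and LINC02413 had opposite signs in the 2 lines, that of PVT1 being near 0 in SW620. The outside library minus the inside library, as log2 of CPM + 1, was 0.013 for PVT1 in SW620 and -0.63 in SW620-TET2CD; scaled by library totals alone, PVT1 in SW620 was at 12.194 CPM inside and 12.186 CPM outside, so that its sign there turned with the scaling. For LINC02413 it was -0.62 in SW620 and 1.21 in SW620-TET2CD. Each line had 1 library per location, and the difference between the lines was not tested.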

How the results depend on the processing

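The calls of MALAT1, NEAT1 and ELFN1-AS1 over the days kept their direction and passed the threshold under all 19, 20 and 20 alternatives run, and 19 of 20 kept each of UCA1 and LINC02413 between the lines, the exception being no day block. For UCA1 the alternative with thinned cells rests on few UMIs in SW620 and adds no support. Leaving out each library, 3 to 5 lncRNAs were called over the days, with 5 without SW620 of day 15, which added LINC02413 and CYTOR. Between the lines in single cells, 416 to 680 genes were called when a library was left out (416 without SW620 and 426 without SW620-TET2CD of day 9, against 696). That count was 1489 with no filter, 46 with no block (0 lncRNAs), 199 with a mitochondrial limit of 5% and 283 with thinned cells. The interaction had 15 calls with no filter, and the location test 21 with DESeq2 and 472 with no filter. In bulk the lines differed in 709 genes with DESeq2, 2239 with no filter (1 lncRNA, ELFN1-AS1), 178 with upper-quartile factors, 193 with relative log expression factors and 8 with no block, against 73. The cause of these moves was not tested.

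Uncalled values changed sign as follows, as log2 fold changes. With a mitochondrial limit of 5%, CYTOR was at 0.25 and PVT1 at -0.33 over the days and MALAT1 at 0.076 between the lines. Between the lines PVT1 was at 0.0043 with upper-quartile factors and -0.21 to 0.053 leaving out a library, and ELFN1-AS1 at 0.0026 with upper-quartile factors, 0.0024 with thinned cells and -0.068 to 0.040 leaving out a library. By location, leaving out a bulk library gave -0.68 to 0.031 for PVT1 and -0.75 to 1.40 for LINC02413, and by line -0.17 to 0.015 for MALAT1, -1.42 to 1.22 for UCA1, -0.56 to 0.15 for PVT1 and -0.48 to 1.67 for LINC02413; with the sign unchanged, UCA1 was at 0.31 to 2.95 and ELFN1-AS1 at -1.33 to -0.13 by location and ELFN1-AS1 at -1.51 to -0.31 by line. These fits had no residual degree of freedom and no test. At low depth stood UCA1, with 13 to 35 UMIs in the SW620 single-cell libraries, and LINC02413, with 1 expected count in SW480. The pairing by day, line or location was part of the tests as a block, except in the interaction, which had no block for day. No condition had a second library to pair by number.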
